A study of Mus musculus with 40 samples.

Results

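Methylation of CpG dinucleotides at 22 amplified loci in liver was compared between male mice that ate a high-fat (HF) diet after weaning and males that ate a low-fat (LF) diet after weaning, over both maternal diets. All animals were 9-week-old C57BL/6 males (C57BL/6J in the study's methods). Their dams had received the HF or the LF diet through pregnancy and until weaning, which gives 4 groups named by maternal and then post-weaning diet: LL (10 animals), HL (9), LH (10) and HH (10). The comparison therefore set 20 HF animals (LH and HH) against 19 LF animals (LL and HL), which were 39 of the 40 animals of the series. A CpG entered the tests where at least 36 animals had a value, which held for 253 of 300 CpGs and for 19 of the 22 loci, the others being Pparg, Igf2 and the 5′ UTR of Irs1. The rule used no methylation value. DNA came from whole liver, which holds several cell types, so a change of methylation within a cell type and a change in the mix of cells cannot be told apart in any value below. In the study's methods, the males of each cage were divided between the HF and LF diets at weaning. The labels do not say which males were littermates or shared a cage, so the main tests treated the animals as unpaired.

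In mammals, methyl groups sit mainly on the cytosine of CpG pairs. CpG-rich promoters are usually unmethylated in all tissues, CpG-poor regions are usually methylated, and imprinted control regions carry the mark on the copy from 1 parent. The loci belong to genes of leptin and insulin signalling, gluconeogenesis, the nuclear receptors that sense lipids and foreign compounds, sterol regulation, the NF-kappaB inflammatory pathway and imprinting. Leptin, a hormone of fat cells encoded by Lep, reports fat stores to the brain through the leptin receptor encoded by Lepr, which the liver also expresses.

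At Lep and Nr1i2, which lie wholly upstream of their genes, the CpG with the smallest p is shown here, so that the site behind the value can be seen, as a 26-base window of the mouse build NCBIM37, on the strand of the gene and 5′ to 3′, with the measured CpG in capitals. Lep_11 means CpG 11 along the Lep amplicon by genome position, and other CpGs are named in the same way. Lep_11 lies at chr6:29010057-29010082 on the plus strand and Nr1i2_1 at chr16:38296344-38296369 on the minus strand.
Lep_11: tctccctcgaggCGcctagaatggag
Nr1i2_1: tgccaccacaccCGgcccctaagttg
The 26 bases around Lep_11 hold 2 CpGs and those around Nr1i2_1 hold 1.

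The tested loci fell into 2 classes of level. At 10 loci the mean methylation was under 2%, from 0.687% at Nr1h2 to 1.57% at Nr1h3, and at 9 loci it was higher, from 6.71% at Lepr to 94.5% in the coding exon of Irs1. The amplicons of the low class held a median of 7.64 CpGs per 100 bp (range 4.69 to 11.6) and those of the high class 4.72 (range 1.99 to 8.68). The highest density in the high class was that of Lepr. Wherever a CpG had reads in an animal, their number was at least 100. The median number of reads per CpG in an animal had a median of 6002.5 over HF animals (range 4407 to 13976) and of 7306 over LF animals (range 4010 to 18485.5), and the difference did not pass a permutation test within maternal diet (p = 0.275).

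After weaning on HF, Lepr was the only locus whose difference passed the adjusted threshold, and its methylation was higher. The mean was higher in HF at 13 of the 19 tested loci. The differences at Nr1i3 (2.16 points), Rxrg (1.81), Lep (1.72) and Pck1 (1.61) were larger in points than at Lepr (1.23) but did not pass. Methylation at a CpG is the percentage of its reads in an animal that were methylated, and the difference was tested in a linear model with maternal diet as covariate, adjusted by the Benjamini-Hochberg method. Of 19 loci, 1 passed (adjusted p under 0.05), which is 5.26% of the loci tested, and 2 had an unadjusted p under 0.05 (10.5%). Of 253 CpGs, 3 passed (1.19%), all of them in Lepr and all higher in HF. An unadjusted p under 0.05 was found at 27 CpGs (10.7%), 17 higher and 10 lower in HF. Of these 27, 11 were among the 19 CpGs of Lepr, while outside Lepr 16 of 234 CpGs (6.84%) had such a p. A permutation test within maternal diet with 100000 resamples gave the same counts, 3 and 27 CpGs and 1 and 2 loci. In the same linear models the term for maternal diet passed at 0 CpGs and 0 loci, with an unadjusted p under 0.05 at 30 CpGs and 2 loci. Those loci were Pck1 and Plagl1, both lower in the offspring of HF-fed dams (linear model adjusted p = 0.166 for each).

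The mean over the 19 Lepr CpGs ranged from 5.20% to 9.01% in the 20 HF animals, with a median of 7.50%, and from 4.56% to 7.21% in the 19 LF animals, with a median of 5.99%. The ranges overlapped, but 12 of the 20 HF animals lay above the highest LF animal and 2 LF animals lay below the lowest HF animal. The group means were 7.31% ± 1.03 (SD, n = 20) in HF and 6.08% ± 0.689 (SD, n = 19) in LF. The difference adjusted for maternal diet was 1.23 percentage points (SE 0.285, 95% interval 0.655 to 1.81, linear model p = 0.000116, adjusted p = 0.00219), which is 20.3% of the LF mean. Relative to the spread between animals it was 1.39 residual SDs.

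**Figure D1:**
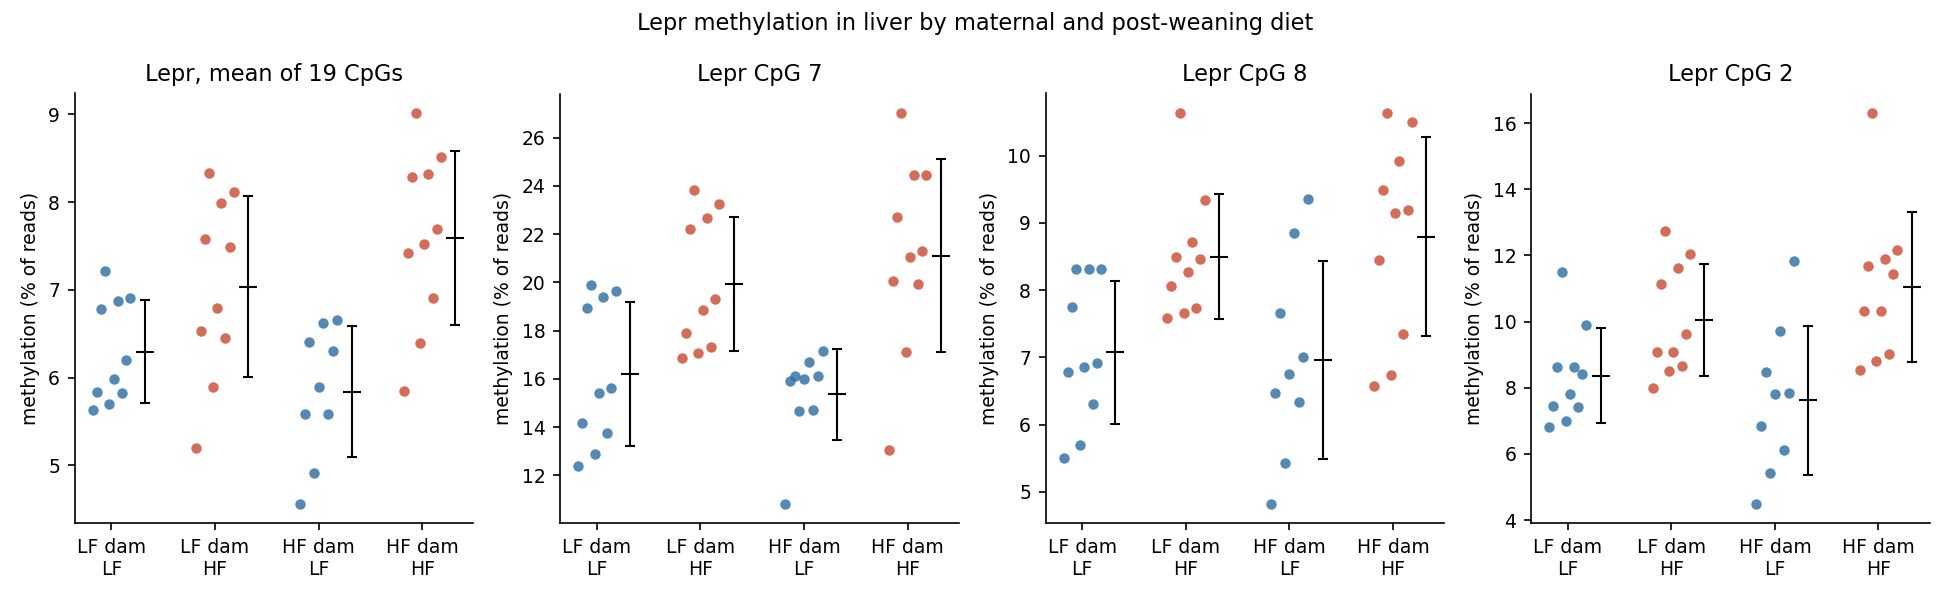
Methylation in percent of reads (y axis) for each animal (points), by maternal diet and post-weaning diet (x axis; LF after weaning in blue, HF in red), for the mean of the 19 Lepr CpGs and for the 3 Lepr CpGs that passed the adjusted threshold. Black marks are the group mean ± SD. In each panel both HF groups have a higher mean than both LF groups, with overlap between animals. At CpG 7, 12 of the 20 HF animals lie above every LF animal.

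The Lepr amplicon crosses the start of the gene, and its CpGs differed in level across that boundary. The 9 CpGs upstream of the gene had mean levels of 6.80% to 26.2%, and the 10 CpGs in the 5′ UTR had levels of 1.36% to 2.81%. The upstream CpGs averaged 13.0% ± 1.84 (SD, n = 20) in HF and 10.7% ± 1.30 (SD, n = 19) in LF, a difference of 2.27 points (95% interval 1.22 to 3.32). The 5′ UTR CpGs averaged 2.20% ± 0.389 in HF and 1.90% ± 0.309 in LF, a difference of 0.300 points (95% interval 0.0681 to 0.533). As a share of the LF mean, these differences were 21.2% upstream and 15.8% in the 5′ UTR. The size of the difference followed the level of the CpG. Across the 19 CpGs, Pearson's r between level and difference was 0.905 and Spearman's rho was 0.830. These are given as a description, since the CpGs share an amplicon and animals.

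The 3 CpGs that passed were Lepr_7, Lepr_8 and Lepr_2, all upstream of the gene. Lepr_7 ranged from 13.0% to 27.0% in HF animals (median 20.6%) and from 10.8% to 19.9% in LF animals (median 15.9%). It differed by 4.70 points (SE 0.972, adjusted p = 0.00624), from 15.8% ± 2.49 (SD, n = 19) in LF to 20.5% ± 3.40 (SD, n = 20) in HF. Here 12 HF animals lay above every LF animal and 3 LF animals below every HF animal. Lepr_8 ranged from 6.58% to 10.6% in HF (median 8.48%) and from 4.83% to 9.35% in LF (median 6.86%). Its difference was 1.62 points (SE 0.397, adjusted p = 0.0230), and 5 HF animals lay above every LF animal. Lepr_2 ranged from 7.99% to 16.3% in HF (median 10.3%) and from 4.50% to 11.8% in LF (median 7.81%). Its difference was 2.54 points (SE 0.629, adjusted p = 0.0230), and 11 of the 19 LF animals lay below every HF animal. The highest Lepr_2 value, 16.3%, was that of HH replicate 6, which was also the highest animal at Lepr_7 and for the locus mean.

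The remaining Lepr CpGs were also higher in HF, although they did not pass. In all, the mean was higher in HF at 19 of 19 Lepr CpGs, against 155 of 234 CpGs outside Lepr. Among the CpGs of the other loci of 2% or more it was higher at 67 of 73, so this direction was not particular to Lepr. The relative difference at the Lepr CpGs had a median of 18.7% of the LF value (range 1.40% to 34.2%). The upstream CpG with the highest level, Lepr_1, named after its values were seen, was 27.9% ± 5.69 in HF and 24.4% ± 3.11 in LF (difference 3.40 points, adjusted p = 0.413). Lepr_4, Lepr_5 and Lepr_6 differed by 1.84, 2.38 and 1.75 points (adjusted p = 0.261 for each). Among the 5′ UTR CpGs, Lepr_15 had the smallest p, at 2.44% in HF and 1.84% in LF (difference 0.604 points, adjusted p = 0.291). Correlations between 2 Lepr CpGs of the same amplicon were taken across the 39 animals after subtraction of the group means. Their median was 0.187 over 171 pairs (range -0.277 to 0.678). The number of reads also changed along the amplicon. The median was 3744 to 3791 reads at Lepr_1 to Lepr_5, Lepr_18 and Lepr_19, and 7512 to 7526 reads at the CpGs between them. Such a step was not particular to Lepr. The median was 43442 reads at Lep_1 and 87124 at Lep_11, and 22826 at Rxrg_1 and 45692 at Rxrg_7. The reason was not tested.

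**Figure D2:**
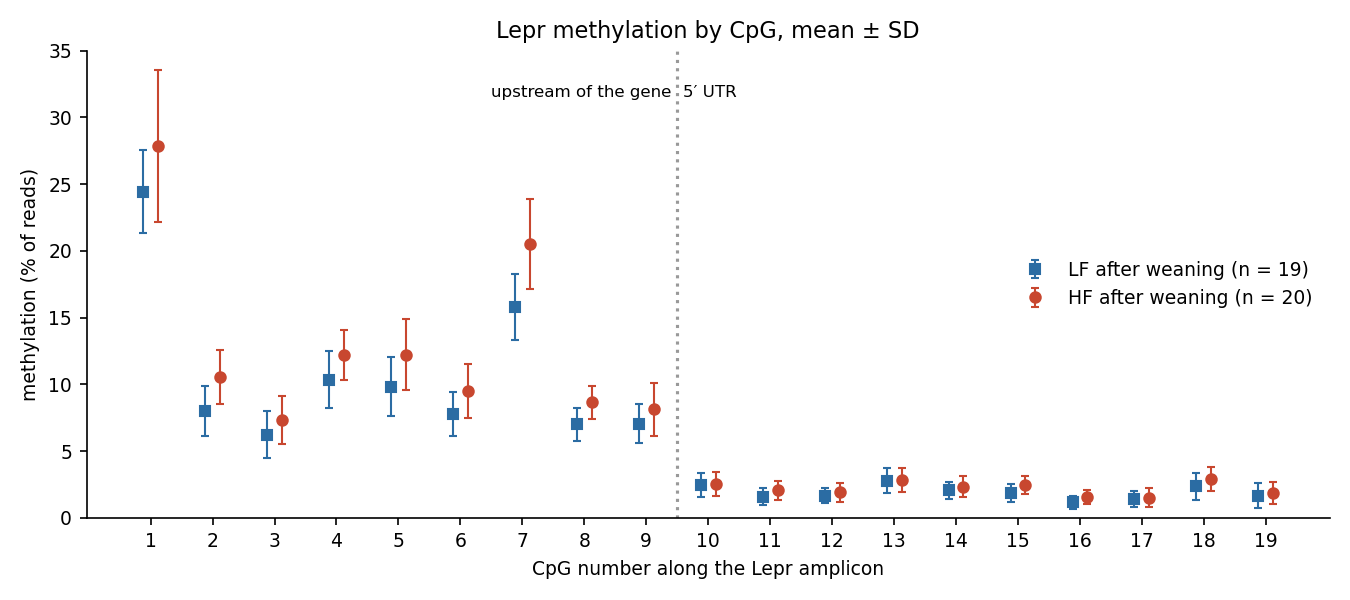
Mean methylation ± SD (y axis, percent of reads) at each of the 19 Lepr CpGs in order along the amplicon (x axis), for 20 HF animals (red circles) and 19 LF animals (blue squares) after weaning. The dotted line separates the 9 CpGs upstream of the gene from the 10 in the 5′ UTR. The HF mean is higher at every CpG, and the separation is widest in points at CpG 7, where the means are 20.5% and 15.8%.

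The Lepr difference had the same sign in the offspring of both kinds of dam. In the offspring of LF-fed dams the locus mean was 6.30% ± 0.589 in LL and 7.04% ± 1.03 in LH (difference 0.742 points), and in the offspring of HF-fed dams it was 5.84% ± 0.746 in HL and 7.59% ± 0.993 in HH (difference 1.75 points). Of the LH animals 5 lay above every LL animal, and of the HH animals 8 lay above every HL animal. At 16 of the 19 CpGs the mean was higher in HF in both, against 74 of 234 CpGs outside Lepr. Lepr was singled out by its difference over these same animals, so the shared sign is not separate support for it. Lepr_7 differed by 3.71 and 5.75 points, Lepr_8 by 1.42 and 1.83, and Lepr_2 by 1.69 and 3.43, in the offspring of LF-fed and HF-fed dams. The values at Lepr_1 were furthest apart, at 0.314 and 6.65 points (limma interaction p = 0.0296, adjusted p = 0.658). The test of a change of the post-weaning difference with maternal diet did not pass for the Lepr locus (limma interaction term 1.01 points, p = 0.0736, adjusted p = 0.659).

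**Figure D3:**
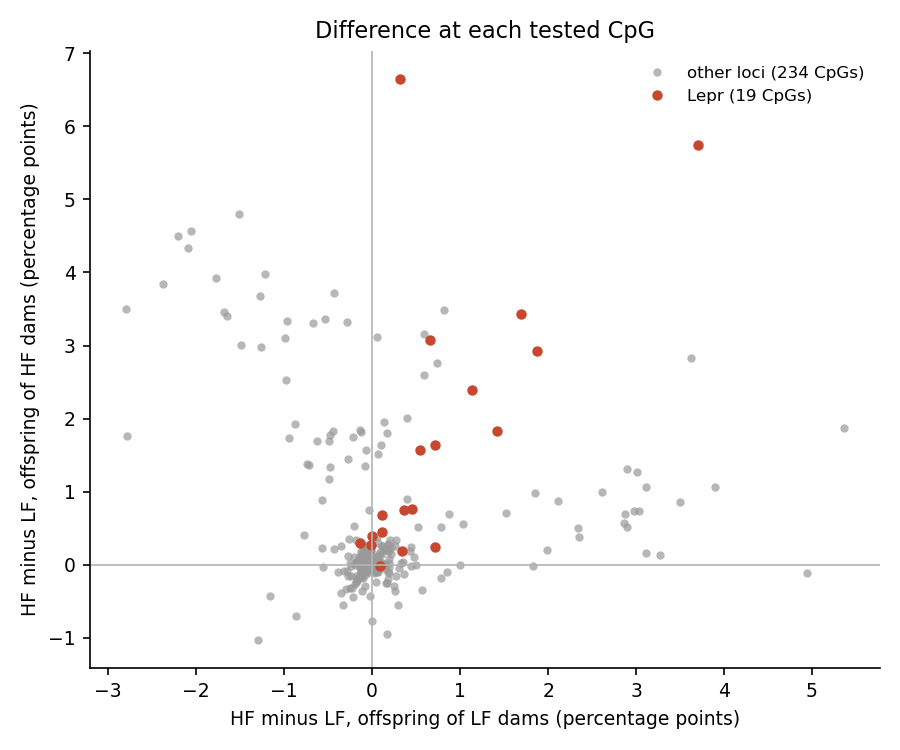
Difference HF minus LF after weaning at each tested CpG, in percentage points, in the offspring of LF-fed dams (x axis) and of HF-fed dams (y axis), with the 19 Lepr CpGs in red and the other 234 in grey. Of the Lepr CpGs, 16 lie in the upper right, where both differences are positive, against 74 of the other 234. CpGs of Plagl1, whose locus differences had opposite signs (-1.75 and 3.57 points), are among the grey points at the upper left.

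The labels number the animals, and males with nearby numbers may have been born or housed together, which the labels do not state. When animals were joined into runs with gaps of at most 3 numbers, 5 of 12 runs held both post-weaning diets (22 animals, 12 HF and 10 LF). The Lepr locus mean was higher in HF in 4 of the 5 runs, with differences of 1.65, 0.734, 2.45 and 1.76 points, and was -0.815 points in the remaining run, which held 1 animal of each diet. With the run as a block in place of maternal diet, the Lepr difference was 1.29 points (SE 0.316, linear model adjusted p = 0.0169) and passed. In that fit 0 CpGs passed, with 14 at an unadjusted p under 0.05. The adjusted p was 0.330 for Lepr_7 and Lepr_2 and 0.504 for Lepr_8, while in the same 22 animals without the block it was 0.120, 0.120 and 0.397. Among the other loci, the fit with the block gave -0.160 points at Nr1i2, 3.78 at Pck1 and 2.30 at Plagl1 (linear model adjusted p = 0.593 for each), against -0.363, 1.61 and 0.909 over all animals with maternal diet as covariate. In the same 22 animals without the block these were -0.145, 3.21 and 2.35 points. The choice of summary also mattered, since with the median over the 19 CpGs, which falls among CpGs of low level, the Lepr difference was 0.185 points (linear model adjusted p = 0.741).

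The other genes of leptin and insulin signalling did not pass. At Lep (chromosome 6, 29009955 to 29010069, upstream of the gene), the mean over 11 CpGs ranged from 59.6% to 73.0% in HF (median 67.2%) and from 58.7% to 70.0% in LF (median 65.6%). Of the HF animals, 4 lay above every LF animal. The difference was 1.72 points (95% interval -0.467 to 3.90, adjusted p = 0.383), and the HF mean was higher at 11 of 11 CpGs. Within Lep the smallest p was at Lep_11, whose sequence is given above. Lep_11 ranged from 56.8% to 70.5% in HF (median 63.5%) and from 53.9% to 66.7% in LF (median 60.8%), and 8 HF animals lay above every LF animal. Its difference was 3.67 points (SE 1.31, unadjusted p = 0.00825, adjusted p = 0.261), made up of 5.36 points in the offspring of LF-fed dams and 1.87 points in those of HF-fed dams. Irs1 encodes a docking protein of the insulin receptor, and 2 of the loci lay in it. Its coding exon (chromosome 1, 82285756 to 82285857) was 94.6% ± 1.17 methylated in HF and 94.3% ± 1.28 in LF (difference 0.290 points, 95% interval -0.512 to 1.09, adjusted p = 0.807). Leaving out 1 animal gave 0.122 (without HL replicate 8) to 0.459 points (without LH replicate 7), and 0.145 without LL replicate 7. The smallest p of the exon was at its CpG 4, with 96.5% in HF and 95.9% in LF (adjusted p = 0.595). Its 5′ UTR (chromosome 1, 82287315 to 82287497) had values in too few animals for the rule.

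Both gluconeogenic loci had differences whose interval included 0. Pck1 encodes the cytosolic form of phosphoenolpyruvate carboxykinase, a control point of glucose output by the liver. At its promoter and first bases (chromosome 2, 172978445 to 172978561), methylation over 5 CpGs ranged from 20.1% to 42.5% in HF (median 25.3%) and from 17.6% to 46.7% in LF (median 22.1%). The groups overlapped, with 2 LF animals below every HF animal and 1 LF animal above every HF animal. Of the 20 HF animals, 17 lay above the LF median, which pools LL and HL animals with means of 28.2% and 21.4%. Within dam diet, 6 of 10 LH animals lay above the LL median and 8 of 10 HH animals above the HL median. The difference was 1.61 points (95% interval -2.24 to 5.46, adjusted p = 0.807), with -0.0173 points in the offspring of LF-fed dams and 3.33 in those of HF-fed dams. It was 0.860 points without LH replicate 3 and 2.68 without LL replicate 4, the highest animal of each diet. The smallest p was at Pck1_5, with 31.2% in HF and 29.2% in LF (adjusted p = 0.774). Pck2, the mitochondrial form, was 0.756% ± 0.159 in HF and 0.752% ± 0.144 in LF (difference 0.00507 points, 95% interval -0.0939 to 0.104).

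Among the 6 nuclear receptor loci, 4 had a higher mean in HF and 2 a lower one, and none passed. Nr1i2 encodes the pregnane X receptor, which switches on genes that clear drugs and bile acids. Upstream of it (chromosome 16, 38296356 to 38296422), methylation over 5 CpGs ranged from 93.4% to 95.05% in HF (median 94.0%) and from 93.1% to 95.3% in LF (median 94.5%). The 19 HF animals with a value had 3 above the LF median. The difference was -0.363 points (SE 0.158, 95% interval -0.684 to -0.0426, unadjusted p = 0.0276, adjusted p = 0.262). The lowest animal was an LF animal, HL replicate 4 at 93.1%, and without it the difference was -0.443 points and passed (linear model adjusted p = 0.0375). Nr1i2 passed in only 1 of the 39 fits that left out 1 animal, and in 0 of 17 other alternatives. Nr1i2_1, shown above, was 96.0% ± 1.16 in HF and 96.7% ± 0.642 in LF (difference -0.784 points, adjusted p = 0.386), and 10 of the 19 HF animals lay below every LF animal.

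Nr1i3 encodes the constitutive androstane receptor, a partner of Nr1i2 in drug metabolism. Upstream of it, the mean over 4 CpGs ranged from 26.0% to 42.6% in HF (median 32.8%) and from 24.8% to 36.2% in LF (median 30.7%). The difference was 2.16 points (SE 1.19, 95% interval -0.247 to 4.57, unadjusted p = 0.0771, adjusted p = 0.366), and Nr1i3_4 had the smallest p of the locus (difference 2.52 points, adjusted p = 0.543). Rxrg encodes a retinoid X receptor, the shared partner of many nuclear receptors. Its 10 CpGs (chromosome 1, 169548431 to 169548578, 5′ UTR and intron) averaged 4.49% to 27.0% in HF (median 12.6%) and 9.13% to 15.2% in LF (median 11.1%). The SD was 4.63 in HF and 1.82 in LF, and 2 HF animals lay above and 2 below every LF animal, all 4 of them LH animals. The highest and the lowest rested on few reads, since LH replicate 8, at 27.0%, had a mean of 159.8 reads per CpG and LH replicate 6, at 4.49%, had 518.2, against a median of 22834 at the locus. The others, LH replicate 2 at 21.01% and LH replicate 1 at 6.996%, had 41459.9 and 20327.5 reads. With a minimum of 1000 reads, which removed 3 HF animals, these were the highest and the lowest HF animal, and the SD in HF was 2.90. The difference in means was 1.81 points over all animals (95% interval -0.502 to 4.12, adjusted p = 0.383), 1.07 without LH replicate 8 and 1.63 with the minimum of 1000 reads (linear model adjusted p = 0.263). Its smallest p was at Rxrg_7 (11.03% in HF and 8.93% in LF, adjusted p = 0.463). After subtraction of the group means, the correlation between 2 Rxrg CpGs across the animals had a median of 0.956 over 45 pairs. It was 0.943 at Nr1i3 and 0.955 at Pck1.

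The other nuclear receptor loci, Rxra and the liver X receptor genes Nr1h3 and Nr1h2, which sense oxysterols, were under 2% in both groups. Their differences were 0.0728 points at Rxra (95% interval -0.149 to 0.294), 0.0460 at Nr1h3 (-0.246 to 0.338) and -0.0167 at Nr1h2 (-0.0831 to 0.0497). Nr1h3_4 had the most negative difference of all tested CpGs, with 1.59% ± 1.06 in HF and 2.80% ± 2.08 in LF (-1.16 points, adjusted p = 0.413). Nr1h2_3 was 0.562% ± 0.223 in HF and 0.926% ± 0.533 in LF (-0.367 points, adjusted p = 0.261), and 17 of the 20 HF animals lay below the LF median.

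The 4 sterol loci were Srebf1 and Srebf2, which encode the transcription factors of lipid and cholesterol synthesis, Insig2, which holds those factors in the endoplasmic reticulum, and Ebp, a cholesterol synthesis enzyme encoded on the X chromosome. None passed, and 3 of their 71 CpGs had an unadjusted p under 0.05, against 16 of 234 (6.84%) over all CpGs outside Lepr. The differences were -0.000432 points at Srebf1 (95% interval -0.0493 to 0.0484), 0.0348 at Srebf2 (-0.0439 to 0.114) and -0.00132 at Insig2 (-0.0727 to 0.0701). At Ebp 1 animal set the result. HH replicate 1 was at 20.8%, the next HH animal at 1.03%, and LF animals ranged from 0.560% to 0.945%. The difference was 1.08 points with that animal (95% interval -1.005 to 3.16) and 0.107 points without it (unadjusted p = 0.0762, adjusted p = 0.290).

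Both NF-kappaB genes, which encode precursors of the transcription factor subunits p50 and p52, were under 1% in both groups. The difference was -0.0630 points at Nfkb2 (95% interval -0.129 to 0.00293, adjusted p = 0.366) and -0.00745 at Nfkb1 (-0.0633 to 0.0484, adjusted p = 0.936). At Nfkb2, 5 of the 20 HF animals lay above the LF median.

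The imprinted loci had levels of 51.1% (Plagl1) and 46.8% (Peg3) and no CpG with an unadjusted p under 0.05 among 28. Over all CpGs outside Lepr the share with such a p was 6.84%. Plagl1, a growth-regulating zinc finger gene (chromosome 10, 12810372 to 12810570), ranged from 45.3% to 59.6% in HF (median 51.5%) and from 41.4% to 58.9% in LF (median 50.2%), a difference of 0.909 points (95% interval -1.65 to 3.47, adjusted p = 0.807). Leaving out 1 animal gave 0.447 (without HL replicate 5) to 1.27 points, and without LH replicate 3 it was 0.515. The smallest p was at Plagl1_11 (52.6% in HF and 51.1% in LF, adjusted p = 0.720). The differences in the 2 kinds of offspring had opposite signs, -1.75 points with LF-fed dams and 3.57 points with HF-fed dams. The limma test of that change gave 5.32 points with p = 0.0312 and an adjusted p of 0.592. Peg3 (chromosome 7, 6682916 to 6683052) ranged from 41.8% to 52.8% in HF (median 47.6%) and from 39.2% to 51.9% in LF (median 47.3%), a difference of 0.548 points (95% interval -1.47 to 2.56, adjusted p = 0.832). Leaving out 1 animal gave 0.150 (without HL replicate 6) to 0.871 points (without LH replicate 7), and leaving out HL replicates 3 and 9, HH replicate 5 or LH replicates 5 and 10 singly also moved it by over 1.5 times (0.255 to 0.858 points). The smallest p was at Peg3_1 (46.8% in HF and 46.0% in LF, adjusted p = 0.828).

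**Figure D4:**
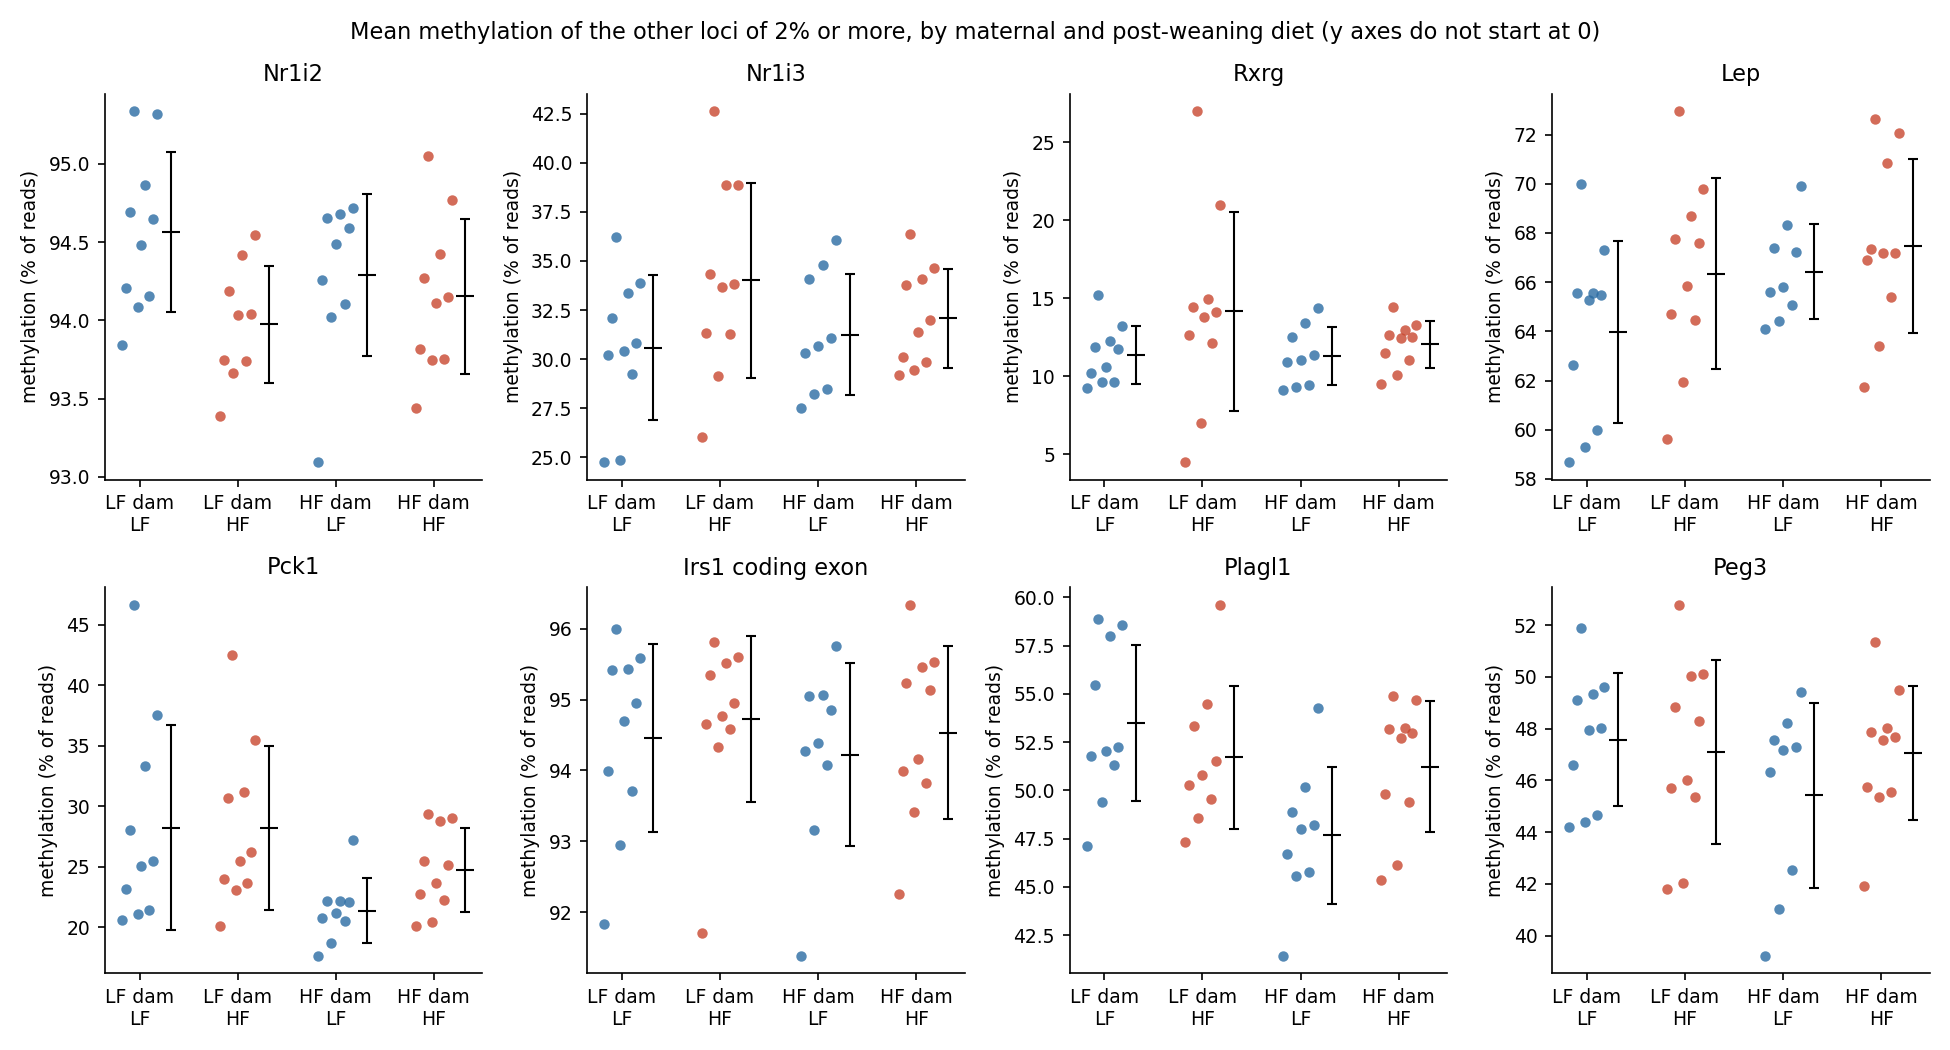
Mean methylation of the tested CpGs, in percent of reads (y axes, which do not start at 0), for each animal (points) at the 8 other loci of 2% or more, by maternal and post-weaning diet (x axis; LF after weaning in blue, HF in red). Black marks are the group mean ± SD. The ranges of HF and LF animals overlap at every locus, and the widest spread is that of the LL animals at Pck1, from 20.6% to 46.7%.

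Across all loci, the mean was higher in HF at 13 of 19, and the sign was shared by the offspring of both kinds of dam at 12 of 19. By level, the HF mean was higher at 8 of the 9 loci of 2% or more and at 5 of the 10 loci under 2%. The interval of the difference reached furthest from 0 at Pck1 (5.46 points) among the loci of 2% or more other than Lepr, and least far at Nr1i2 (0.684 points). Among the loci under 2% other than Ebp, no interval reached further than 0.338 points, at Nr1h3. For the change of the post-weaning difference with maternal diet, limma called 0 of 253 CpGs and 0 of 19 loci, with an unadjusted p under 0.05 at 17 CpGs and 1 locus. An ordinary linear model gave the same 4 counts.

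**Figure D5:**
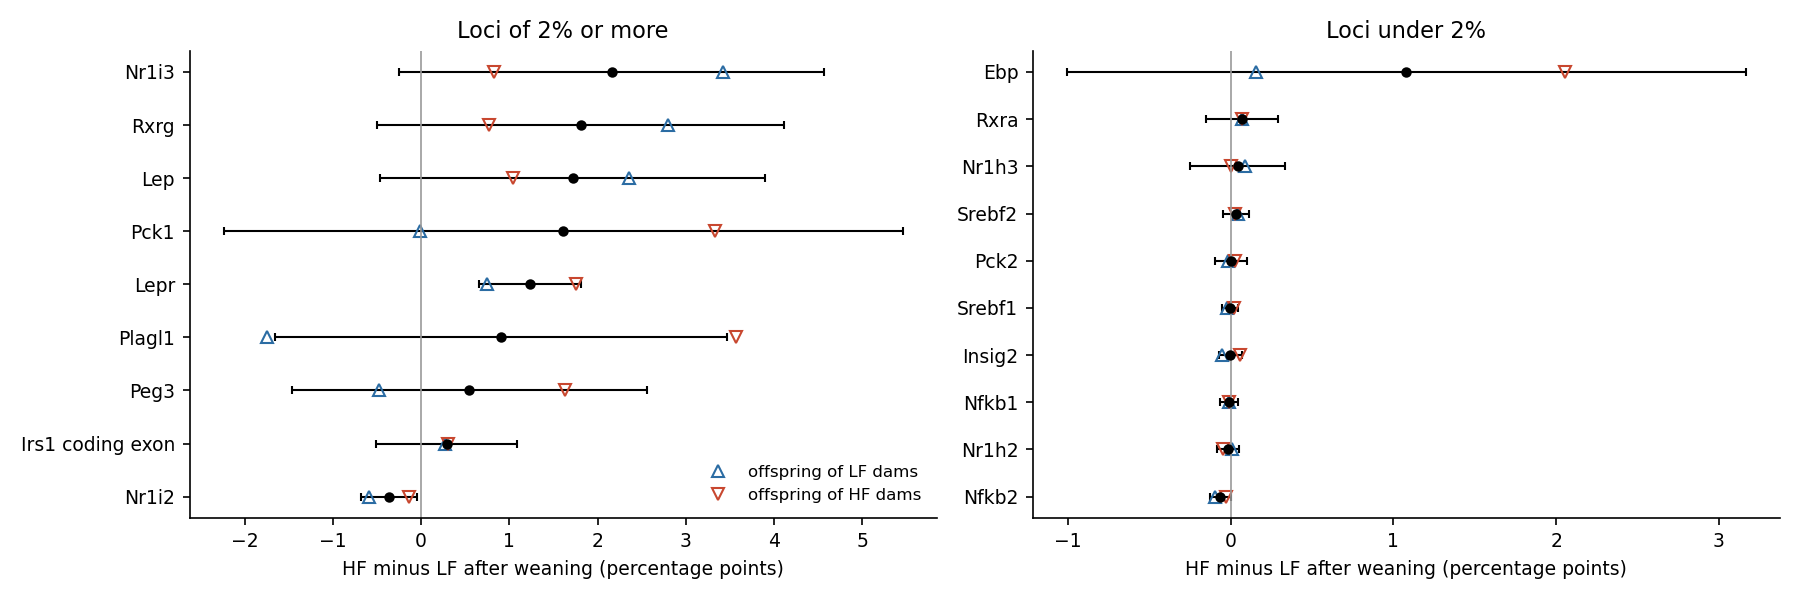
Difference HF minus LF after weaning in percentage points (x axis) at each tested locus, for loci of 2% or more (left) and under 2% (right), with the scales of the panels differing. Black points and bars are the difference adjusted for maternal diet and its 95% interval, and open triangles the differences in the offspring of LF-fed (blue, upward) and HF-fed dams (red, downward). The intervals of Lepr (0.655 to 1.81 points) and Nr1i2 (-0.684 to -0.0426) do not include 0, and that of Ebp reaches 3.16 points.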

How the data were processed

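DNA from liver was bisulfite treated, 22 loci were amplified, and the products were pooled by animal under 1 barcode for sequencing. Alignment and methylation calls by the authors used Bismark (version not given in the sources used here; build mm9 per the labels). They deposited counts of methylated reads and of all reads per CpG and animal. A deposited table of methylated fractions equalled the ratio of the counts to within 5e-16 over 11071 values. Of the columns with values per animal, 0 were left unused. HL replicate 1 was not analysed here.

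The coverage minimum was 10 reads, and a tested CpG had to meet it in 36 animals or more. A locus mean was the mean over its tested CpGs where an animal had at least 50% of them. All 22 primer pairs were matched to the bisulfite-converted genome NCBIM37 and annotated with GENCODE M1. The 11 CpGs beyond the matched amplicons, 2 of them tested, were kept. Some sequences and coordinates, among them those of Lepr, are not reported here. Percent was modelled by ordinary least squares as maternal plus post-weaning diet, the interaction by limma, and 2-sided p-values were adjusted over all features of a comparison (Benjamini-Hochberg, threshold 0.05). Depth was compared by permutation of post-weaning diet within maternal diet (100000 resamples). The files do not say whether reads are independent molecules, so read numbers do not give the counting error of a value. Incomplete conversion and sequencing errors count as methylated reads. This weighs most at loci under 2% and at the Lepr 5′ UTR CpGs, whose levels were 1.36% to 2.81%. No pair of animals was a duplicate (closest pair 0.808 points apart per CpG).

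Loci named in full had an unadjusted p under 0.05 or a level of 2% or more. CpGs named were those called, the 10 with the smallest p, the smallest p at each such locus and the largest difference in each direction. The comparison, lists and rules were chosen with earlier results of these data known. Alternatives are given in the closing section. The fits were run on simulated data before use. The changes put into those data were larger than the CpG differences found here, so nothing is concluded from them on differences of this size. Tools were R 4.3.3 with limma 3.58.1, and Python 3.11.15 with matplotlib 3.10.9, pandas 2.3.3, scipy 1.17.1 and numpy 2.4.6.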

Additional observations from a re-analysis of the deposited data

Results flagged for a closer look

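Of 76 sets of 1 locus in 1 diet group, 9 held an animal that stood apart from its group by Dixon's gap rule, which flags about 1 in 20 groups by chance. At Ebp, HH replicate 1 was at 20.8% (169539 reads per CpG), and LH replicate 5 was at 1.59% with 112 reads per CpG. Without HH replicate 1 the difference at Ebp was 0.107 points instead of 1.08, and without LH replicate 5 it was 1.07. At Nr1i2, HL replicate 4 was at 93.1% against 94.0% in the next animal, and without it the locus passed (linear model adjusted p = 0.0375). Nr1i2 did not pass when any other single animal was left out. The same animal was at 27.2% at Pck1, against 22.1% in the next, and without it the Pck1 difference was 1.90 points instead of 1.61. LH replicate 7 was at 91.7% in the Irs1 coding exon, and without it the difference was 0.459 points instead of 0.290. The other animals were HL replicate 8 at Nr1h2 (1.05%), HH replicate 5 at Nr1h3 (2.54%), HH replicate 7 at Pck2 (0.478%) and LL replicate 10 at Rxra (1.81%). Leaving out each of these left its locus short of the adjusted threshold. No animal stood apart at Lepr. The part of single animals in these values beyond this was not tested.

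Of the sets of untested CpGs with values in at least 10 animals of each diet, 3 had a higher mean in HF and 2 a lower one. The Irs1 5′ UTR, at a median of 312 reads per CpG, was 1.03% ± 0.270 (SD) in 18 HF animals and 0.789% ± 0.178 in 17 LF animals. In a fit added after seeing the data, over CpGs with values in at least 10 animals of each diet, its difference was 0.207 points (SE 0.0751, linear model p = 0.00992 in 33 animals, adjusted p = 0.109). The untested CpGs of the imprinted gene Igf2 were 3.58% ± 0.442 in 15 HF animals and 3.41% ± 0.457 in 13 LF animals (difference 0.174 points in the same fit, adjusted p = 0.793). The 3 untested CpGs of Rxra were 1.0004% ± 0.897 in 10 HF animals and 0.943% ± 0.601 in 11 LF animals. The lower ones were Pparg, which encodes a fat-cell nuclear receptor (0.754% ± 0.292 in 17 HF animals and 0.778% ± 0.286 in 15 LF animals), and the 7 untested CpGs of Nr1h3 (1.62% ± 0.991 and 1.72% ± 1.17, 17 animals each).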

How the results depend on the processing

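The Lepr locus stayed higher in HF and past the threshold in 39 of 39 fits that left out 1 animal (1.14 to 1.35 points, adjusted p = 0.000275 to 0.00480) and in 17 of 18 other alternatives, the exception being the median over CpGs (0.185 points, adjusted p = 0.741), with which 0 loci passed. It passed without maternal diet or with an interaction term in the model, with log10 reads as covariate (1.21 points) and with pooled reads (1.12 points). It also passed at a coverage minimum of 1000 reads and under permutation, Wilcoxon, quasi-binomial and limma tests. Of the 17, those with a minimum of 100 reads, a value in all animals, the wider set of loci or CpGs within the amplicons only left every Lepr value unchanged. Those fits gave the 1.23 points of the main fit and could not test the Lepr difference. The quasi-binomial model called 2 loci, adding Rxrg, and leaving out 1 animal gave 1 to 2 loci. The number of CpGs called was 3 whichever animal was left out. It was 1 with the stratified Wilcoxon test and 0 with the run as block (gaps of at most 3 or 4) and in the same animals without the block, where fewer animals entered. In those 3 fits Lepr_7 was 4.20, 4.15 and 4.84 points, Lepr_8 1.46, 1.52 and 1.53, and Lepr_2 2.88, 2.89 and 3.03. The interaction called 0 CpGs and 0 loci under each alternative run for it: an ordinary linear model, a value in all animals, and leaving out each animal. Signs changed at loci near 0 only: at Srebf2 with the median (-0.00696), at Rxra with the block at gaps of 4 (-0.0317) and at Nfkb1 with log10 reads (0.00152). At Insig2 the value was 0.00165 with the interaction term, 0.0112 with log10 reads, 0.00939 at 1000 reads, 0.0193 and 0.0118 with the blocks and 0.0219 without. At Srebf1 it was 0.000194 with the interaction term, 0.0115 with log10 reads, 0.0227 with the median, 0.00984 and 0.00823 with the blocks and 0.00653 without. Leaving out 1 animal gave -0.0127 to 0.00939 at Insig2, -0.0102 to 0.00602 at Srebf1, -0.0140 to 0.0218 at Pck2, -0.0172 to 0.00387 at Nfkb1, -0.0252 to 0.00202 at Nr1h2 and -0.00901 to 0.0895 at Nr1h3. The fit in the same animals without the block, that with CpGs within the amplicons only and that with the wider set of loci were chosen after seeing the data. Replicate numbers follow accession order and pair no animals, and the runs were the only matching tried. The cause of these changes was not tested.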
